A study of Mus musculus with 12 samples.

Results

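Regulators of G protein signalling (RGS proteins) and 2 further genes of small GTPase signalling, Gem and Rasgef1b, were followed in mouse bone marrow derived macrophages exposed to lipopolysaccharide (LPS). Of 10 genes listed by symbol (Rgs1, Rgs2, Rgs3, Rgs10, Rgs14, Rgs16, Rgs18, Rgs19, Gem and Rasgef1b), 9 had a probe set annotated to that symbol alone, out of 19938 symbols with such a probe set on the array. A symbol with several probe sets is represented by its brightest one, by the mean over the 12 arrays. Rgs10 was not analysed here.

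The cells came from C3H/HeN mice, a strain that responds to LPS through Toll-like receptor 4. Marrow cells were expanded with interleukin-3, interleukin-6 and stem cell factor together with L-cell conditioned medium, a source of macrophage colony stimulating factor, and adherent cells were then replated without conditioned medium. LPS was given at 100 ng/ml, for either 45 min or 270 min, and further cultures were left unstimulated. All cultures, the unstimulated ones included, received 200 µM 4-thiouridine for their last 35 min. RNA that had taken up this uridine analogue was biotinylated and purified on streptavidin beads and is called nascent RNA, and the RNA before purification is called total RNA. The 6 groups were nascent and total RNA at 45 min, at 270 min and without LPS, each with 2 arrays, 1 from each of 2 independent experiments. The labels do not say how many mice gave the marrow of an experiment, so p-values measure the spread between these samples only.

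RGS proteins speed up GTP hydrolysis by the alpha subunits of heterotrimeric G proteins and thereby shorten signalling from receptors such as those for chemokines. Gem belongs to the RGK family of small GTPases, which bind the beta subunits of voltage-gated calcium channels and lower channel activity. Rasgef1b is a guanine nucleotide exchange factor with a Ras-type exchange domain, and in mouse macrophages it is known as a gene induced through Toll-like receptors.

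All values are log2 intensities, and a difference of 1 is a 2-fold difference. A gene was called in a comparison at a limma p adjusted by Benjamini-Hochberg below 0.05 over all 19938 symbols. As a background level, the 95th percentile of 1027 olfactory receptor symbols was taken on each array, which lay between 6.18 and 6.80. Arrays of a group correlated across genes at 0.981 to 0.989. The unstimulated nascent arrays stood apart in one respect: the difference between experiments 2 and 1 in that group correlated at -0.29 to 0.02 with the same difference in the other 5 groups, against 0.17 to 0.64 among those 5 groups. Their interquartile ranges were 2.64 and 3.00, against 2.24 to 2.50 on the 4 stimulated nascent arrays. Of the macrophage markers, 11 of 11 measured genes were above background in at least 1 group, with Csf1r between 10.07 and 12.85 and Lyz2 between 12.07 and 13.78. By the same rule 3 of 12 neutrophil markers were above background (S100a8, Mpo and Camp, while Ly6g was not), 2 of 8 T and NK cell markers (Cd3e and Cd8a, while Cd3g was not), 3 of 7 dendritic cell, 1 of 6 B cell and 1 of 3 erythroid markers.

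Rasgef1b and Rgs2 responded in opposite directions, and their promoter windows are shown first with that of Rgs16, because these 3 held a match to at least 1 of the 5 motifs searched. RefSeq (GRCm38.p6) gave windows of 250 bases before to 50 bases after the start site for 6 of the 10 genes, 9 windows in all. No window was given for Rgs1, Rgs14, Rgs18 and Gem, so their promoters were not searched. The 3 printed windows run 5′ to 3′ on the gene's strand, and the capitals mark the motif matches.
Rasgef1b, chr5:99252878-99253177, minus strand: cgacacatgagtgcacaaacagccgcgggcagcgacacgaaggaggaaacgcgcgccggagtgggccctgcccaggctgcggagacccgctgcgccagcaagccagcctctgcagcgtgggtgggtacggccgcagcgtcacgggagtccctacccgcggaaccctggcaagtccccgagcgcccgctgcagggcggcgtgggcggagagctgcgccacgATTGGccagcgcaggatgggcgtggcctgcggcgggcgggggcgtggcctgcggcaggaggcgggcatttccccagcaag
Rgs2, chr1:144004100-144004399, minus strand: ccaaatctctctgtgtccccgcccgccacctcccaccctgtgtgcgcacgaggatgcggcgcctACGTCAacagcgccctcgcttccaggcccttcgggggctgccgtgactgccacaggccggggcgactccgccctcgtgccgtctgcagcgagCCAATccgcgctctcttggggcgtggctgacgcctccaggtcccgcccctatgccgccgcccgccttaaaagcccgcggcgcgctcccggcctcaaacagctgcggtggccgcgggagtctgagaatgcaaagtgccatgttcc
Rgs16, chr1:153740103-153740402, plus strand: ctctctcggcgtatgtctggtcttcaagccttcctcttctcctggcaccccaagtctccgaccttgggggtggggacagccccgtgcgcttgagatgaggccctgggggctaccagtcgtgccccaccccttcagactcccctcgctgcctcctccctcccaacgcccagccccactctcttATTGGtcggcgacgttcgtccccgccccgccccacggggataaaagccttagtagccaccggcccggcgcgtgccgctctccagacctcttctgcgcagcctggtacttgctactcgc

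The motifs were searched on both strands. The CCAAT box (CCAAT, or ATTGG on the other strand) was found in the windows of Rasgef1b at position -30, Rgs2 at -94 and Rgs16 at -68 relative to the start site, and 37.4% of the 32544 RefSeq windows held it. The core of the cyclic AMP response element (TGACGT, here read as ACGTCA) was found in the Rgs2 window at -186, and 7.55% of all windows held it. The NF-kB consensus (4.53% of all windows), the AP-1 motif TGANTCA (7.79%) and the serum response element (1.64%) were not among the letters of these 9 windows. No match overlapped another in the printed windows.

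Rgs1, Rgs2 and Rgs18 lie in a row of 5 protein-coding genes on chromosome 1 of the same assembly, in the order Rgs2, Rgs13, Rgs1, Rgs21 and Rgs18. Rgs13 (3.25 to 4.10) and Rgs21 (3.50 to 4.40) were under background on all 12 arrays. Rgs1 was higher under LPS at both times, while Rgs2 and Rgs18 were lower at 270 min.

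**Figure D1:**
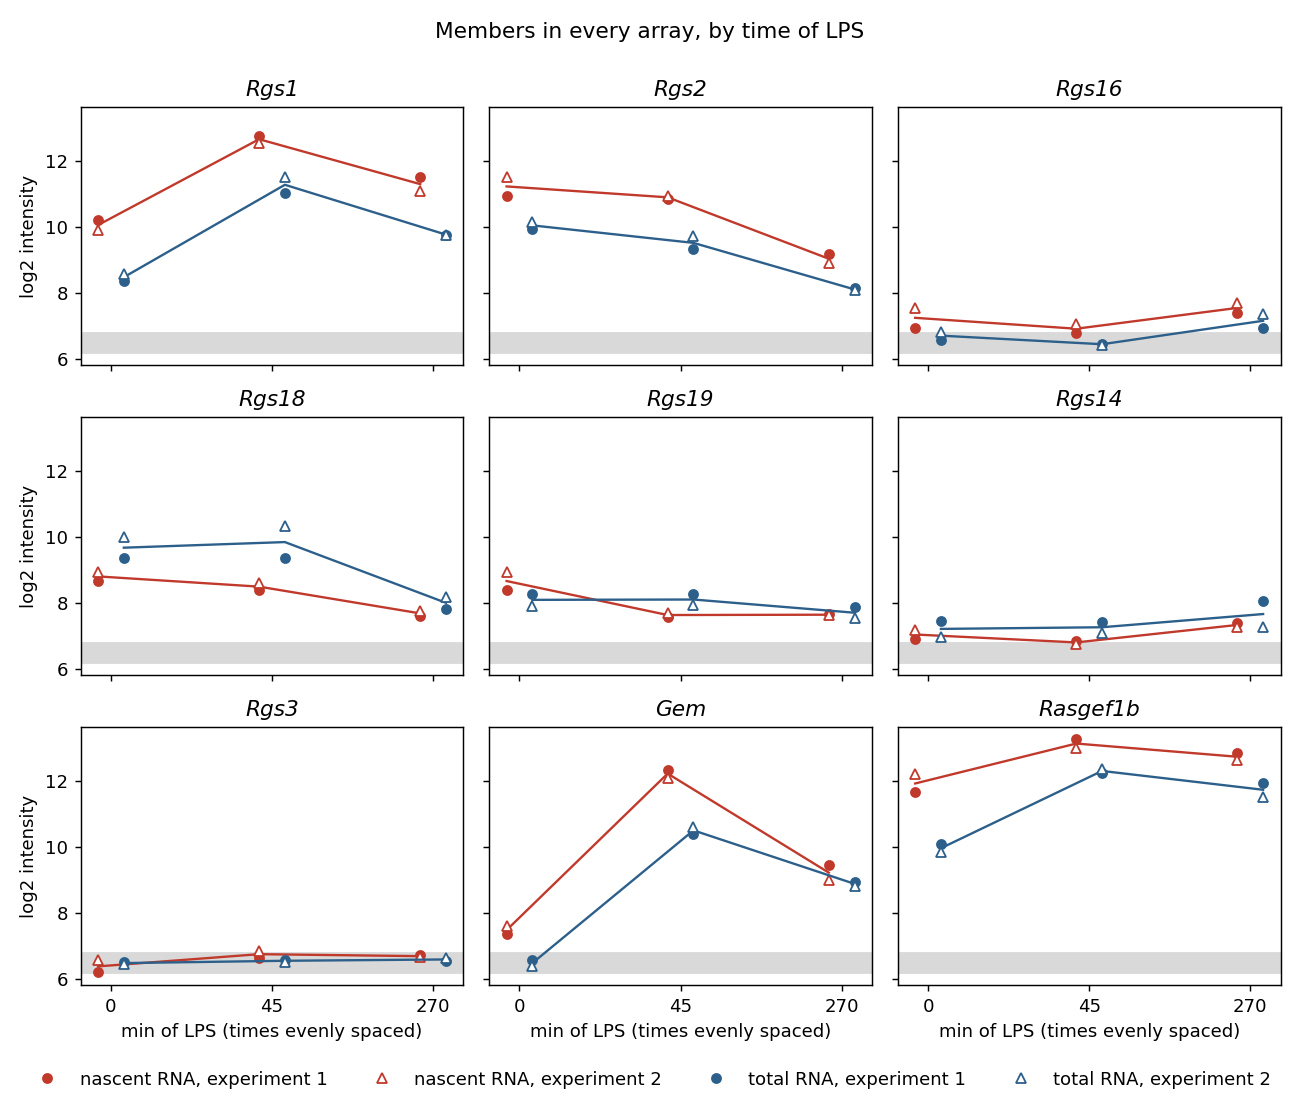
Log2 intensity of the 9 genes on each array (vertical axis) against min of LPS (horizontal axis, times evenly spaced), with circles for experiment 1, open triangles for experiment 2 and lines through the means of nascent (red) and total RNA (blue). The grey band is the background level of 6.18 to 6.80; the means of Rgs1, Gem and Rasgef1b were highest at 45 min in both kinds of RNA, whereas Rgs2 was lowest at 270 min and Rgs3 stayed near the band.

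Gem was the member with the largest response. In nascent RNA it was at 7.37 and 7.62 in unstimulated cells (experiments 1 and 2), at 12.35 and 12.11 after 45 min and at 9.47 and 9.0 after 270 min of LPS. Each stimulated array was above each unstimulated one, and the 270 min arrays lay between the other groups. The rise at 45 min over unstimulated cells was 4.73 ± 0.22 (SE, n = 2 arrays per group), a 26.6-fold difference (adjusted p = 1.34e-08). At 270 min 1.74 ± 0.22 was left of it (adjusted p = 4.59e-05), and the difference between 270 and 45 min was -2.99 ± 0.22 (adjusted p = 4.5e-07).

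Total Gem RNA followed the same order of times, and its smaller rise at 45 min did not differ from the nascent one past the threshold. It was at 6.59 and 6.40 in unstimulated cells, near the background level of 6.24 and 6.32 on these arrays, at 10.41 and 10.62 after 45 min and at 8.96 and 8.81 after 270 min. The 3 times did not overlap. Total Gem RNA rose by 4.02 ± 0.22 (16.3-fold, adjusted p = 1.33e-07) at 45 min and by 2.39 ± 0.22 (5.26-fold, adjusted p = 3.94e-06) at 270 min over unstimulated cells. Between 270 and 45 min the difference was -1.63 ± 0.22 (adjusted p = 0.000132).

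Rgs1, which restrains chemokine receptor signalling through Gi in lymphocytes and myeloid cells, was the RGS gene with the largest rise. Its nascent RNA was at 10.21 and 9.91 in unstimulated cells, 12.76 and 12.55 after 45 min and 11.51 and 11.08 after 270 min. Its total RNA was at 8.38 and 8.57, then 11.04 and 11.51, then 9.76 and 9.77 at the same times. In both kinds of RNA the 3 times were apart on every array, in the order unstimulated, 270 min, 45 min. The rise at 45 min was 2.60 ± 0.22 in nascent RNA (6.05-fold, adjusted p = 6.73e-06) and 2.80 ± 0.22 in total RNA (6.98-fold, adjusted p = 7.65e-06). At 270 min Rgs1 was still 1.24 ± 0.22 higher in nascent RNA (adjusted p = 0.000883) and 1.29 ± 0.22 higher in total RNA (adjusted p = 0.000795) than in unstimulated cells.

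Rasgef1b was bright already without LPS. Nascent Rasgef1b RNA was at 11.66 and 12.21 in unstimulated cells, 13.28 and 13.00 after 45 min and 12.84 and 12.64 after 270 min, and the brightest symbol on the nascent 45 min arrays was at 13.95 and 13.57. Total Rasgef1b RNA was at 10.10 and 9.84, then 12.25 and 12.37, then 11.96 and 11.53. Stimulated arrays were above unstimulated ones in both kinds of RNA. Total Rasgef1b RNA rose by 2.34 ± 0.21 at 45 min (5.06-fold, adjusted p = 3.12e-05) and by 1.77 ± 0.21 at 270 min (3.42-fold, adjusted p = 4.35e-05). Its nascent RNA rose by 1.20 ± 0.21 at 45 min (2.30-fold, adjusted p = 0.00324) and by 0.80 ± 0.21 at 270 min (adjusted p = 0.0142). The nascent rise at 270 min was 0.53 (adjusted p = 0.118) without the unstimulated nascent array of experiment 1 and 0.70 (adjusted p = 0.11) without the 270 min nascent array of experiment 1. The values at 270 and 45 min did not differ past the threshold, at -0.40 (95% interval -0.86 to 0.06) in nascent RNA and -0.56 (-1.02 to -0.11, adjusted p = 0.0876) in total RNA; with experiment as a replicate block, the difference in total RNA had an adjusted p of 0.044.

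Rgs2, an RGS protein with a preference for Gq, fell late. Nascent Rgs2 RNA was at 10.94 and 11.51 in unstimulated cells, 10.86 and 10.93 after 45 min and 9.17 and 8.91 after 270 min, and its total RNA was at 9.95 and 10.15, then 9.32 and 9.73, then 8.14 and 8.08. The 270 min arrays were below all others of the same kind of RNA. At 270 min the difference from unstimulated cells was -2.18 ± 0.23 in nascent RNA (4.54-fold lower, adjusted p = 9.03e-06) and -1.94 ± 0.23 in total RNA (3.84-fold lower, adjusted p = 3.75e-05). Most of it came after 45 min: from that time the difference to 270 min was -1.85 ± 0.23 in nascent RNA (adjusted p = 4.93e-05) and -1.41 ± 0.23 in total RNA (adjusted p = 0.000601). At 45 min the differences from unstimulated cells were -0.33 (95% interval -0.82 to 0.16) in nascent and -0.53 (-1.02 to -0.03) in total RNA, and neither passed the threshold.

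Rgs18, an RGS gene of platelets, megakaryocytes and other marrow-derived cells, was also lower at 270 min. Total Rgs18 RNA was at 9.37 and 10.00 in unstimulated cells, 9.36 and 10.35 after 45 min and 7.83 and 8.19 after 270 min, with experiment 2 higher at each time. Its nascent RNA was at 8.66 and 8.95, then 8.40 and 8.60, then 7.60 and 7.77. No array at 270 min overlapped those of the other times in the same kind of RNA. In total RNA the difference between 270 min and unstimulated cells was -1.67 ± 0.30 (3.19-fold lower, adjusted p = 0.00134), and between 270 and 45 min -1.84 ± 0.30 (adjusted p = 0.000699). In nascent RNA the difference between 270 min and unstimulated cells was -1.12 ± 0.30 (adjusted p = 0.016). This nascent call was lost without the unstimulated array of experiment 2 (-0.98, adjusted p = 0.125), without either 270 min array (-1.03, adjusted p = 0.099, without experiment 1 and -1.21, adjusted p = 0.0582, without experiment 2) and after quantile scaling of the nascent arrays (-0.84, adjusted p = 0.0786).

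Markers of some cells other than macrophages were above background as well. Of the mast cell and basophil list, 9 of 11 genes were above background in at least 1 group. Their summed level in total RNA was 9.78 and 11.04 in unstimulated cells, 10.06 and 11.29 after 45 min and 10.77 and 11.24 after 270 min, so that, as for total Rgs18 RNA, experiment 2 was higher at each time. Mcpt8 reached 9.59 and Cpa3 8.92, while Mcpt4 and Cma1 were under background throughout. Of the megakaryocyte and platelet list, 4 of 5 measured genes were above background in at least 1 group. Its summed level in total RNA was 8.33 and 8.81, then 8.67 and 9.05, then 9.19 and 9.59, with experiment 2 higher at each time here too. In total RNA the summed level of neither list was lower at 270 min than without LPS in either experiment. Total Rgs18 RNA was lowest at 270 min. Sums follow the brightest genes, and single genes differed. Total Pf4 RNA was at 6.40 and 7.32 without LPS and at 8.36 and 8.77 after 270 min. In total RNA of experiment 2, Fcer1a went from 7.56 to 7.10 and Mcpt8 from 9.24 to 9.19 between these times. Cpa3 went from 8.41 to 8.73 and Kit from 7.0 to 7.58. Of the fibroblast and stromal list, 5 of 7 genes were above background in at least 1 group, among them the collagens Col1a1, Col1a2 and Col3a1. Its summed level in total RNA was 9.10 and 9.16 in unstimulated cells, 9.19 and 9.12 after 45 min and 10.28 and 10.45 after 270 min, and in nascent RNA 9.32 and 9.20, then 9.39 and 9.64, then 10.40 and 10.42. It was thus higher at 270 min than at the other times in both experiments, while Rgs2 and Rgs18 were lower. The part of such cells in the Rgs2 and Rgs18 values was not tested. In RNA from a whole culture, fewer cells of a type and less RNA per cell cannot be told apart.

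Rgs19, also known as GAIP, acts on Gi family alpha subunits. It was the only member called lower in nascent RNA at 45 min. Nascent Rgs19 RNA was at 8.41 and 8.94 in unstimulated cells, 7.57 and 7.71 after 45 min and 7.66 and 7.65 after 270 min, so both stimulated times lay below the unstimulated arrays and overlapped each other. Its total RNA was at 8.28 and 7.91, then 8.28 and 7.93, then 7.89 and 7.54. The nascent difference from unstimulated cells was -1.03 ± 0.23 at 45 min (adjusted p = 0.0139) and -1.02 ± 0.23 at 270 min (adjusted p = 0.00573). Without the unstimulated nascent array of experiment 2 it was -0.77 (adjusted p = 0.168) at 45 min and -0.75 (adjusted p = 0.0749) at 270 min. The call at 45 min was also lost without the 45 min nascent array of experiment 1 (-0.96, adjusted p = 0.0917) or of experiment 2 (-1.10, adjusted p = 0.0736). In total RNA the differences were 0.01 (95% interval -0.49 to 0.51) at 45 min and -0.38 (-0.88 to 0.12) at 270 min.

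Rgs16, an RGS protein that acts on Gi and Gq alpha subunits, was dim, and its levels at 270 min were above those at 45 min. Total Rgs16 RNA was at 6.58 and 6.83 in unstimulated cells, 6.47 and 6.42 after 45 min and 6.95 and 7.38 after 270 min, and its nascent RNA was at 6.94 and 7.56, then 6.80 and 7.05, then 7.40 and 7.70. In total RNA the 270 min arrays were above the others, and in nascent RNA they overlapped the unstimulated ones. The difference between 270 and 45 min was 0.72 ± 0.23 in total RNA (adjusted p = 0.0453) and 0.63 ± 0.23 in nascent RNA (adjusted p = 0.0856, and 0.0207 with experiment as a replicate block). The call in total RNA was lost without the 270 min total array of experiment 2 (0.50, adjusted p = 0.313), without either 45 min total array (0.75, adjusted p = 0.121, without experiment 1 and 0.69, adjusted p = 0.163, without experiment 2) and, at the unchanged difference of 0.72, without any one of 6 further arrays (adjusted p = 0.0518 to 0.0572): the unstimulated total arrays and the 45 and 270 min nascent arrays of both experiments. With an offset of 32 on the linear scale it was lost as well (0.56, adjusted p = 0.0576). Over unstimulated cells, 270 min gave 0.30 (95% interval -0.19 to 0.80) in nascent and 0.46 (-0.04 to 0.95) in total RNA, neither past the threshold.

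Rgs14 and Rgs3 passed the threshold in none of the 11 comparisons. Rgs14, which joins an RGS domain to Ras-binding domains, ranged from 6.75 to 7.41 over the nascent and from 6.98 to 8.05 over the total arrays. Its widest difference was 0.54 between 270 and 45 min in nascent RNA (95% interval 0.00 to 1.07, adjusted p = 0.203), where the 2 groups did not overlap. After quantile scaling of the nascent arrays this difference was 0.71 (adjusted p = 0.0441). Rgs3, which acts on Gi and Gq alpha subunits, ranged from 6.22 to 6.86, near the background levels of 6.18 to 6.80, and was not under background on both arrays of any group. Its second probe set ranged from 6.10 to 6.60.

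**Figure D2:**
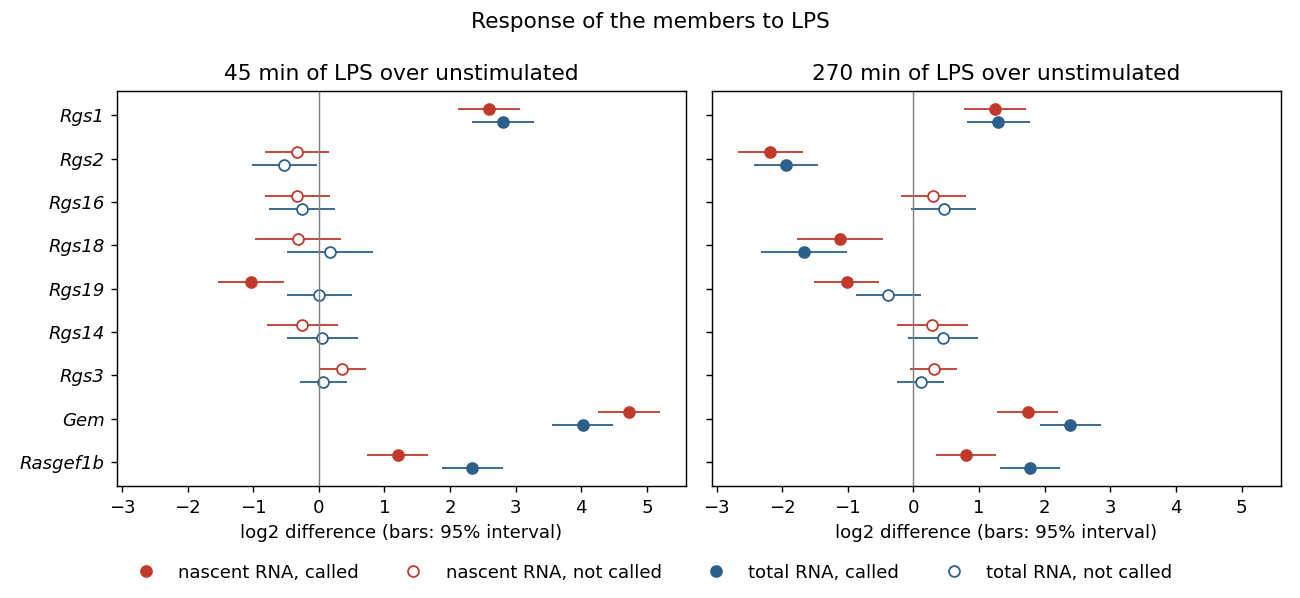
Log2 difference between LPS and unstimulated cells (horizontal axis; points, with 95% intervals as bars) for the 9 genes (rows) at 45 min (left) and 270 min (right), in nascent (red) and total RNA (blue), with filled points for called genes. Gem, Rgs1 and Rasgef1b lie right of 0 in both panels, and Rgs2 and Rgs18 lie left of 0 in both kinds of RNA at 270 min, with differences of -2.18 and -1.94 for Rgs2.

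Counted over the 9 genes at 45 min, 3 rose and 1 fell in nascent RNA, where 8.93% of all symbols were called in either direction. In total RNA 3 rose and 0 fell by limma at this time (1 was lower at an unadjusted p below 0.05), where 0.682% of all symbols were called. The median difference at 45 min was -0.25 over the 9 genes and 0.11 over all symbols in nascent RNA, and 0.07 and -0.01 in total RNA. At 270 min, 3 rose and 3 fell in nascent RNA, where 23% of all symbols were called, and 3 rose and 2 fell in total RNA, where 19% were called. In a fit without the dimmer symbols, 4251 of 9969 were called in nascent and 3793 of 9969 in total RNA at this time. The counts of members at 270 min are thus not read as an excess over genes of like brightness. The medians at 270 min were 0.30 over the 9 genes and 0.12 over all symbols in nascent RNA, and 0.45 and 0.07 in total RNA. Between 270 and 45 min, 0 were higher by limma (1 at an unadjusted p below 0.05) and 3 were lower in nascent RNA, with 16.8% of all symbols called. In total RNA 1 was higher and 4 were lower between these times, with 18.2% called. Comparisons that use the same unstimulated or 45 min arrays are not independent of each other.

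With experiment as a replicate block, 5 of the 9 genes were called between 270 and 45 min in nascent RNA: Rgs18 (-0.81, adjusted p = 0.0103) and Rgs16 (0.63, adjusted p = 0.0207) joined the 3. The block called 4114 of all symbols in this comparison (20.6%), against 16.8% without it. Quantile scaling of the nascent arrays also gave 5, with Rgs14 and Rgs16 (0.77, adjusted p = 0.0305) as the additional genes.

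Nascent over total RNA was compared within each culture, since nascent RNA was purified out of that culture's total RNA. Each ratio is relative to the bulk of genes on its 2 arrays. In unstimulated cells 4 of the 9 genes were higher and 1 was lower in nascent than in total RNA, where 16% of all symbols were called. Rasgef1b had the highest ratio at 1.97 ± 0.18 (1.56 and 2.37 in experiments 1 and 2, adjusted p = 5.65e-07). Rgs1 followed at 1.58 ± 0.20 (1.83 and 1.34, adjusted p = 1.92e-05), Rgs2 at 1.18 ± 0.20 (1.00 and 1.35, adjusted p = 0.000278) and Gem at 1.00 ± 0.21 (0.79 and 1.22, adjusted p = 0.00237). Rgs18 was the member that was lower in nascent RNA, at -0.87 ± 0.23 (-0.71 and -1.04, adjusted p = 0.00994). Without the unstimulated culture of experiment 2 the Rgs18 ratio was -0.71 (adjusted p = 0.0649). With experiment as a replicate block, Rgs16 (0.55, adjusted p = 0.0445) and Rgs19 (0.58, adjusted p = 0.0278) were called as well, among 21% of all symbols. The Rgs19 ratio was 0.13 in experiment 1 and 1.03 in experiment 2.

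After 45 min of LPS, 4 were again higher and 1 lower in nascent than in total RNA, where 25.4% of all symbols were called. Gem now had the highest ratio at 1.71 ± 0.21 (1.94 and 1.49 in experiments 1 and 2, adjusted p = 5.8e-06), above Rgs1 at 1.38 ± 0.20 and Rgs2 at 1.37 ± 0.20. The Rasgef1b ratio was 0.83 ± 0.18 (1.03 and 0.63, adjusted p = 0.00138), and 0.63 (adjusted p = 0.148) without the 45 min culture of experiment 1. The Rgs18 ratio was -1.36 ± 0.23 (-0.97 and -1.75, adjusted p = 0.000125), and -0.97 (adjusted p = 0.0619) without the 45 min culture of experiment 2.

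After 270 min 3 were higher and 0 lower by limma (also 0 at an unadjusted p below 0.05), where 15.3% of all symbols were called. Rgs1 had 1.53 ± 0.20 (adjusted p = 2.1e-05), Rasgef1b 0.99 ± 0.18 (adjusted p = 0.000439) and Rgs2 0.93 ± 0.20 (adjusted p = 0.00237). Without the 270 min culture of experiment 1 the Rgs2 ratio was 0.84 (adjusted p = 0.162). Gem no longer passed the threshold, at 0.35 ± 0.21 (95% interval -0.10 to 0.80), and neither did Rgs18, at -0.32 ± 0.23 (-0.80 to 0.15). Rgs1 thus kept its ratio between 1.38 and 1.58 at all 3 times, while its level in either kind of RNA moved by more than 2.

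**Figure D3:**
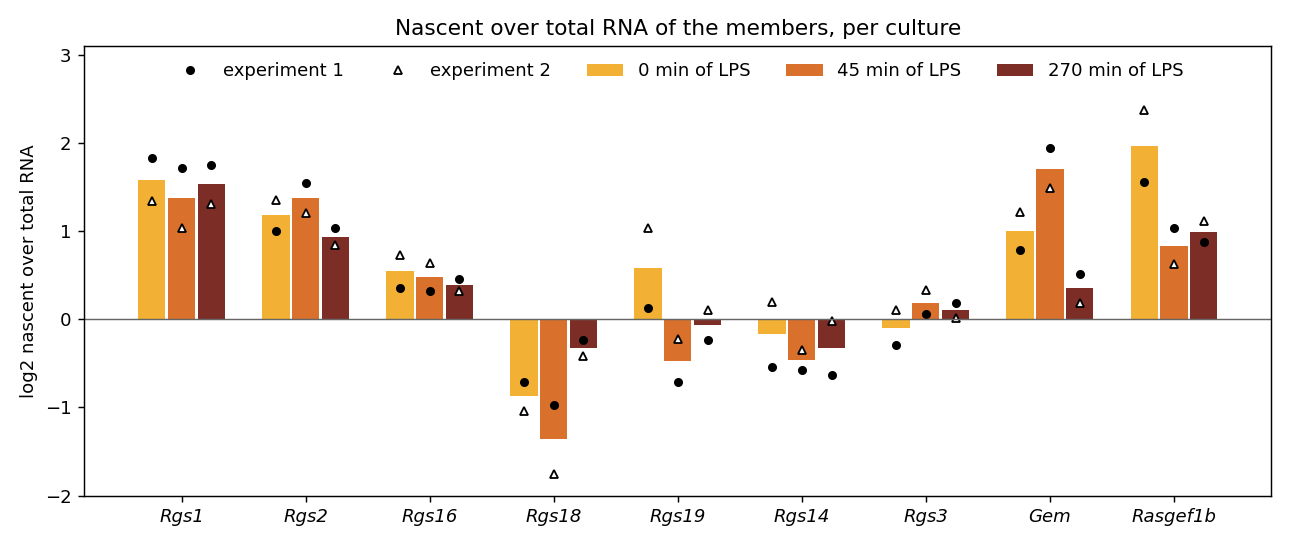
Log2 nascent over total RNA of the 9 genes (vertical axis) at 0, 45 and 270 min of LPS (bars, mean of 2 cultures), with a circle for experiment 1 and an open triangle for experiment 2. Rgs1 and Rgs2 stay above 0.80 in each culture, Rasgef1b is highest at 0 min, Gem at 45 min, and Rgs18 is below 0 in each culture.

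Whether nascent and total RNA responded to LPS by different amounts was tested in the same 6 within-culture ratios. At 45 min over unstimulated cells 1 of the 9 genes was called, Rasgef1b, where 1.04% of all symbols were called. The nascent response of Rasgef1b was smaller than its total RNA response, with a difference of -1.13 ± 0.25 (-0.53 in experiment 1 and -1.74 in experiment 2, adjusted p = 0.0339). This call was lost without the 45 min culture of experiment 1 (-1.34, adjusted p = 0.3) or of experiment 2 (-0.93, adjusted p = 0.653). It was also lost under 5 of the processing alternatives at differences of -1.38 to -1.11 (adjusted p = 0.054 to 0.222). Rgs19 was next at -1.04 ± 0.34 (adjusted p = 0.155, and 0.0114 with experiment as a replicate block, which called 5.54% of all symbols). Without the unstimulated culture of experiment 1, the Rgs19 difference was -1.49, against the 1 unstimulated culture left. Gem gave 0.71 ± 0.30 (95% interval 0.08 to 1.35, adjusted p = 0.335).

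At 270 min 0 of the 9 genes were called by limma, where 0.843% of all symbols were called, and 2 were lower at an unadjusted p below 0.05. These were Rasgef1b at -0.97 ± 0.25 (-0.68 in experiment 1 and -1.26 in experiment 2, adjusted p = 0.0845) and Gem at -0.66 ± 0.30 (adjusted p = 0.67). With experiment as a replicate block 1 gene was called, Rasgef1b (adjusted p = 0.000396), among 2.46% of all symbols. Without the unstimulated culture of experiment 1, the difference was -1.38 for Rasgef1b and -1.09 for Rgs19, against the 1 unstimulated culture left.

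The 9 genes differed in their profiles over the 12 arrays, which vary in both time of LPS and kind of RNA. Over the 12 arrays Rgs1 correlated with Gem at 0.93 and with Rasgef1b at 0.92, whereas Rgs1 correlated with Rgs2 at 0.19 and with Rgs18 at -0.27. Among 9969 symbols in the brighter part of the array, the genes most like Gem were Phlda1 (Pearson r = 0.978 over the 12 arrays), Noct (0.97) and Tnfsf9 (0.969). Those most like Rasgef1b were Tnfaip3 (0.972), which encodes the ubiquitin-editing enzyme A20, Plk2 (0.97) and Irf1 (0.949). For Rgs1 they were Errfi1 (0.972), Zfp719 (0.971) and Flrt3 (0.969), and for Rgs2 they were 1700017B05Rik (0.979), Elf2 (0.977) and Akap10 (0.977). Rgs18 was most like Ccdc34 (0.98), Bbs5 (0.978) and Fam3c (0.975). Rgs19 was most like Cnot8 (0.969), Rgs16 like Ctu1 (0.97) and Rgs14 like Tmem159 (0.952), while the highest value for Rgs3 was 0.85, with Zfand2b. The arrays share cultures and times, so these values describe likeness of profile over them.

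The genes that surround these proteins in their pathways were counted in 7 lists with 120 measured symbols, 32 of them under background in every group. At 45 min 3 were higher and 3 lower in nascent RNA, 5% of the 120 against 8.93% of all symbols. In total RNA at 45 min 0 were called by limma, and 2 were higher and 1 was lower at an unadjusted p below 0.05. At 270 min 17 were higher and 27 lower in nascent RNA (36.7% of the 120, against 23% of all symbols). In total RNA 17 were higher and 25 lower at that time (35%, against 19%). With the dimmer symbols left out of the fit, 4251 of 9969 were called in nascent and 3793 of 9969 in total RNA at 270 min. The shares of the 120 are thus not read as an excess over genes of like brightness. By limma 0 were called in the nascent minus total response at 45 min (3 in each direction at an unadjusted p below 0.05), and 1 was at 270 min, the Rap exchange factor Rapgef5 (-1.64 ± 0.29, adjusted p = 0.00532).

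Among the other RGS family members, 0 of 15 were called in total RNA by limma at either time over unstimulated cells (at an unadjusted p below 0.05, 0 at 45 min and 2 higher at 270 min), and 9 of the 15 were under background in every group. Without the 270 min total array of experiment 1, 1 of the 15 was called higher at 270 min. In nascent RNA at 270 min over unstimulated cells, Rgs9 was called higher (0.59) and Rgs12 lower (-0.57, adjusted p = 0.0217). Rgs9 was under background in both groups, so no change is read from it, and Rgs12 was under background at 270 min and at least 1.24-fold lower there. Both calls were lost when either 270 min nascent array, or experiment 2's nascent array without LPS, was left out. Rgs21 was called higher in total RNA at 270 over 45 min (0.70), also under background in both groups. Among the heterotrimeric G protein subunits, on whose alpha subunits RGS proteins act, 5 of 27 were called higher and 3 lower in total RNA at 270 min; Gnai1, one of the 5, was under background in both groups. Gna12, the alpha subunit G12, fell (log2 difference -2.04 ± 0.20, adjusted p = 9.14e-06), and the beta subunit Gnb4 rose by 1.82 ± 0.28 (adjusted p = 0.00033). Without the unstimulated total array of experiment 1, 4 subunits were called in place of 8, and 5 without that of experiment 2 or without the 270 min total array of experiment 2.

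Receptor kinases, arrestins and other G protein regulators made a list of 12, of which 1 was called higher and 5 lower in total RNA at 270 min. Grk4, one of the 5, was under background in both groups (3.76 at 270 min and 5.33 in unstimulated cells), so no change is read from it. The arrestins Arrb1 (-2.28 ± 0.25, adjusted p = 1.72e-05) and Arrb2 (-1.61 ± 0.22, adjusted p = 0.000115), which end receptor coupling to G proteins, were both lower. In nascent RNA 2 were called higher and 6 lower at that time, Grk4 again under background in both groups (3.51 and 5.10), and 1 was called higher and 3 lower without the 270 min nascent array of experiment 2. Of 19 G protein effectors, 3 rose and 5 fell in total RNA at 270 min, among them phospholipase Plcb2 (-2.09 ± 0.18, adjusted p = 1.8e-06) and adenylyl cyclase Adcy7 (-1.72 ± 0.22, adjusted p = 8.93e-05). Without the unstimulated total array of experiment 2, or without the 270 min total array of experiment 1, 5 effectors were called in place of 8.

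For Gem, the list of RGK GTPases and calcium channel beta subunits held 5 measured genes, 3 of them under background in every group. Rrad, another RGK GTPase, rose by 0.93 ± 0.24 in nascent RNA at 45 min (1.38 in experiment 1 and 0.49 in experiment 2, adjusted p = 0.0272). That call was lost without either 45 min nascent array, and also without the unstimulated one of experiment 1. In total RNA 0 of the 5 were called by limma at either time (1 was higher at each time at an unadjusted p below 0.05).

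For Rasgef1b, the list of Ras and Rap GTPases and their exchange factors had 6 of 27 higher and 8 lower in total RNA at 270 min. The exchange factor Rasgrp1 was at 9.99 on average at 270 min and under background in unstimulated cells, at least 13.1-fold higher (adjusted p = 1.99e-07). The GTPase Rras2 was likewise at least 9.3-fold higher (adjusted p = 2.13e-08), and the exchange factor Rapgef2 rose by 2.12 ± 0.20 (adjusted p = 4.61e-06). In nascent RNA at 45 min Ralgds, an exchange factor for Ral, rose by 1.83 ± 0.32 (2.10 and 1.56 in experiments 1 and 2, adjusted p = 0.00319). Of 15 Ras and Rap GTPase activating proteins, 2 rose and 4 fell in total RNA at 270 min. Rasa3 fell (log2 difference -2.96 ± 0.20, 7.76-fold lower, adjusted p = 2.05e-07), while Rasa2 (2.09 ± 0.22, adjusted p = 1.6e-05) and Sipa1l1 (1.96 ± 0.18, adjusted p = 4.38e-06) rose.

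**Figure D4:**
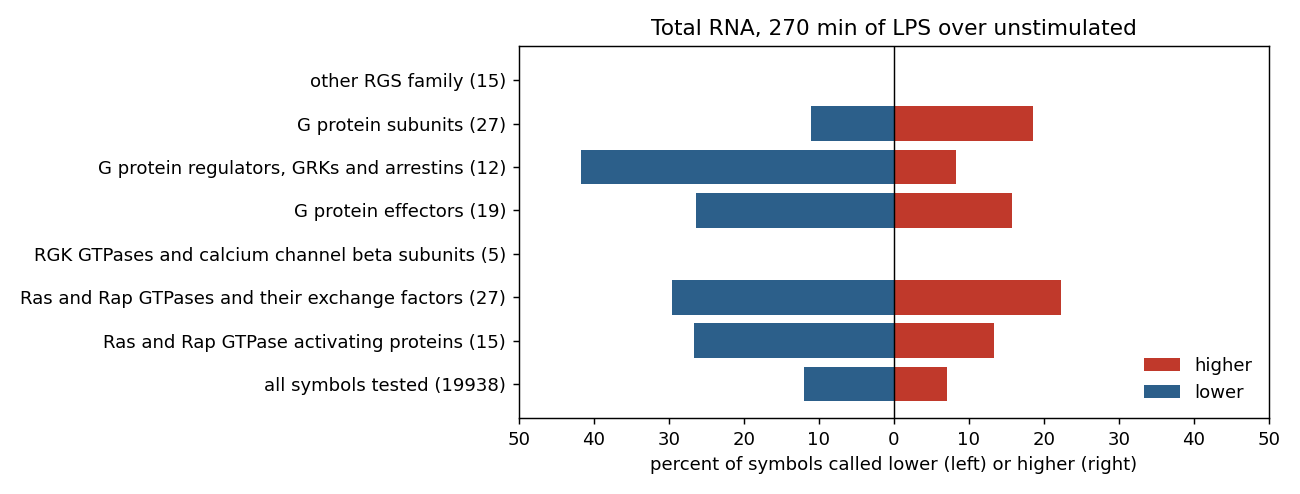
Percent of measured symbols called higher (red, right) or lower (blue, left) in total RNA at 270 min of LPS over unstimulated cells, for 7 lists of genes that act with RGS proteins, Gem or Rasgef1b and for all 19938 symbols, with the number measured in brackets. The list of receptor kinases, arrestins and regulators has 5 of 12 genes called lower, and the other RGS family has none of 15 called.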

How the data were processed

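The deposited values are linear intensities, 1 per probe set. Per the submitters' processing notes, the authors made them with RMA and the Affymetrix Expression Console, in versions not given in the sources used here. All 12 Affymetrix Mouse Gene ST 1.0 arrays had received 100 ng of nascent or 200 ng of total RNA per amplification, per the labels' protocols. Log2 of the deposited intensities was taken. RMA compresses differences of dim genes, and its quantile scaling makes changes relative to the other genes of an array. Whether all 12 arrays were scaled together is not stated in the sources used here. Interquartile ranges of the arrays ran from 2.24 to 3.02. Of 35557 probe sets, 21789 had 1 symbol, and 19938 symbols were tested without a filter on level. A background level says where no change is read.

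Tests used limma 3.58.1 in R 4.3.3 and a variance prior that follows intensity. Differences between times came from 6 group means over 12 arrays (residual degrees of freedom 6, prior 7.4). Comparisons of nascent with total RNA came from 6 within-culture differences (3, prior 16.5). Tables and figures used Python 3.11.15, pandas 2.3.3, numpy 2.4.6 and matplotlib 3.10.9. The fits were checked on simulated data. Alternatives were quantile scaling, a filter on dim genes, an offset of 32, no trend, all probe sets of a symbol, fewer arrays in the fit, no difference per culture, the experiment as a replicate block and leaving out arrays or cultures.

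The replicate numbers pair the samples because the labels mark 2 independent experiments. Deviations between experiments correlated at 0.17 to 0.64 in 10 group pairs and at -0.29 to 0.02 in the 5 pairs with unstimulated nascent RNA.

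The members and lists were chosen with earlier results of these data known. All members were named, with up to 3 called genes of the largest change per pathway list and comparison, and the 3 symbols most like each member.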

Additional observations from a re-analysis of the deposited data

Results flagged for a closer look

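For Rasgef1b the nascent and the total RNA response to 45 min of LPS differed by the test of that difference. The nascent minus total response was -1.13 ± 0.25 (SE, n = 2 cultures per time, limma adjusted p = 0.0339) and was below 0 in both experiments. It passed the threshold in only 7 of 14 alternative fits, and leaving out either 45 min culture lost the call. Nascent RNA rose by 1.20 and total RNA by 2.34. Nascent Rasgef1b RNA at 45 min (13.28 and 13.00) lay near the brightest symbol of those arrays (13.95 and 13.57), and the interquartile range of the unstimulated nascent arrays (2.64 and 3.00) was wider than that of the 45 min nascent arrays (2.50 and 2.24). After quantile scaling, which evens out that range, the difference was -1.36 within each kind of RNA and -1.38 over all arrays. Neither value passed the threshold (limma adjusted p = 0.0687 and 0.0631). The part of brightness or of array spread in the difference was not tested.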

How the results depend on the processing

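Of 1699 alternative values of the 9 genes, 1642 stayed on the same side of the threshold. The call was lost in 33 and gained in 24, and 0 turned a called direction. Differences called neither in the main fit nor in the alternative counted among the 1642 whatever their sign. Total Rgs18 RNA at 45 min over unstimulated cells, 0.17 in the main fit, ran from -0.32 to 0.67. Gem and Rgs1 kept each call over unstimulated cells. Between 270 and 45 min in nascent RNA, 5 genes were called in place of 3 under both quantile scalings and with experiment as a replicate block. In the nascent minus total response at 45 min the count of 1 became 0 under both quantile scalings, with the offset of 32, without the intensity trend and without the difference per culture, and 2 with the replicate block; at 270 min the count of 0 became 1 with the replicate block. The block moved no other count of members by over 1.5 times. Leaving out 1 array or culture gave 3 to 4 called genes in nascent RNA at 45 min, 4 to 6 at 270 min and 3 to 4 between 270 and 45 min. In total RNA it gave 3 to 3, 5 to 6 and 4 to 6 for the same comparisons. For nascent over total RNA it gave 4 to 6 without LPS, 4 to 5 at 45 min and 2 to 3 at 270 min, and 0 to 2 for the difference in response at each time. The cause of these changes was not tested. Rgs3, Rgs16 and total Gem RNA without LPS lay near background, where intensities are compressed.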
